A study of Saccharomyces cerevisiae with 48 samples.

Results

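The positions described here are those of the budding yeast genome whose relative copy number rose most in wild-type cells during meiotic S phase, the round of DNA replication that precedes the meiotic divisions. For each listed position, the mean log2 ratio at 1 and 1.5 hr in meiosis was subtracted from the mean at 2.5, 3 and 3.5 hr, the difference was averaged over the 2 wild-type cultures, and the highest 10% of positions were taken. Chromosome III was left out because its origins differ between strains. This gave 445 positions of 4450 off chromosome III and of 4568 in all, and they are called early positions below. The difference itself is called the S-phase rise.

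Genomic DNA of synchronized meiotic cultures of Saccharomyces cerevisiae was sequenced. Cells were grown by the SPS method before transfer to 2% potassium acetate at 30 °C. The 6 strains were tof1∆ ARS+, tof1∆ ars∆, DDK OP ARS+, DDK OP ars∆, WT ARS+ and WT ars∆, each sampled at 8 times from 0 to 4 hr. Of these 48 samples, the 42 from 1 hr on have values. There was 1 culture per strain, so ARS+ and ars∆ cultures of a background stand in as its pair. The p-values rest on the spread between these cultures, moderated towards the spread seen over all positions. The tof1∆ strains lack Tof1, the DDK OP strains overproduce DDK by means the labels do not give, and the ars∆ strains lack origins on chromosome III. Whether a strain is 1 clone is not given either, and none of these alterations was checked in the data.

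Replication starts at origins, called ARS elements in yeast, and spreads outward as a pair of forks, so DNA near an origin that fires early is doubled before DNA further away. DDK, the Cdc7-Dbf4 kinase, activates licensed origins, and Tof1 travels with the replication fork and helps to hold DDK there. Budding yeast centromeres are known to replicate early and chromosome ends late. While a population of cells is in S phase, early DNA is therefore over-represented relative to late DNA, and the excess shrinks again as the late DNA is completed.

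All values below are on a log2 scale, as the deposited ratio over its sample median, so 0 is the typical position of the sample. A value of a position at 1 time is called its level. Positions are written as chromosome and listed coordinate, in the sacCer2 build that the submitters' notes name. The tables hold ratios without read counts. Depth is therefore unknown, and counting error cannot be given. What the ratios were divided by is not stated.

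The wild-type values chose the positions and are given as description only. The early positions had a median S-phase rise of 0.14 in WT ars∆ and 0.078 in WT ARS+. The limit of the choice was 0.083. The 3 positions just inside it were VII 922500 at 0.0832, IX 205000 at 0.0829 and XII 157500 at 0.0828, and the 3 just outside were X 362500 at 0.0826, XIII 802500 at 0.0825 and X 627500 at 0.0825. The limit therefore falls inside a continuous range of values and separates no distinct class.

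The early positions were gathered around centromeres and were sparse near chromosome ends. Of the 293 listed positions within 25 kb of a centromere, 176 were early (60.1%), so that 39.6% of the early positions lay in 6.58% of the positions off chromosome III. In the outer 30 kb of the listed coordinates, 8 of 302 positions were early (2.65%). Between 30 and 100 kb from an end 41 of 777 were early (5.28%), and in the rest of the arms 220 of 3078 (7.15%). Centromere positions were taken from general knowledge, rounded to 1 kb. Distances to an end were counted from the start of the coordinates or from the last listed position, which may lie short of the true end. These shares rest on the wild-type values, and no test was made of them.

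The share of early positions declined with distance from the centromere. It was 64.7% within 10 kb, 61.4% from 10 to 20 kb, 47.1% from 20 to 30 kb, 27.5% from 30 to 50 kb, 15.9% from 50 to 75 kb and 13.5% from 75 to 100 kb. Beyond 200 kb it was 2.8%. The 4 cultures that took no part in the choice showed the same order when all positions of a distance class were averaged, early or not. Their mean S-phase rise was 0.076 ± 0.023 within 10 kb, 0.040 ± 0.0070 from 30 to 50 kb and -0.014 ± 0.0047 beyond 200 kb (SD, n = 4 cultures).

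**Figure D1:**
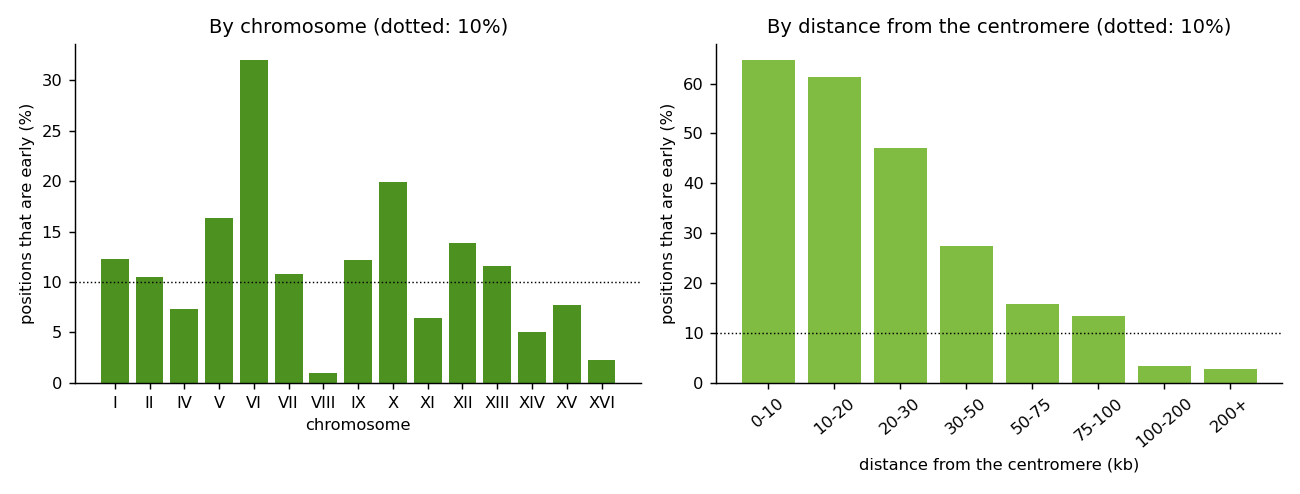
Early positions along the chromosomes in relation to landmarks. Left, percent of each chromosome's listed positions that were early, where VI reached 32% and VIII 0.976%; right, the same percent in each class of distance from the centromere (kb), with 64.7% within 10 kb and 2.8% beyond 200 kb. Dotted lines mark 10%, the share over all positions off chromosome III.

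Centromeres differed among themselves. At 11 of 15 centromeres at least 50% of the positions within 25 kb were early. All 20 were early at the centromere of X, 18 of 20 at that of VII and 14 of 17 at that of II. At the centromere of X the mean rise over these positions was 0.11 in tof1∆ ARS+, 0.12 in tof1∆ ars∆, 0.099 in DDK OP ARS+ and 0.057 in DDK OP ars∆. Below 50% were VIII with 0 of 17, XVI with 1 of 20, I with 5 of 19 and IX with 9 of 20. Around the centromere of VIII the mean rise was -0.024 and 0.0011 in the tof1∆ cultures and -0.074 and 0.015 in the DDK OP cultures, 2 above and 2 below 0. The mean over the 4 cultures was -0.020 ± 0.039 at VIII, 0.031 ± 0.017 at XVI and 0.044 ± 0.028 at I (SD, n = 4 cultures). Of the 15 centromeres, 14 had a mean rise above 0 in all 4 of these cultures, and VIII did not.

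Chromosomes held unequal shares of early positions. Chromosome VI had 32 of 100 positions, X 55 of 277 (19.9%), V 36 of 221 (16.3%) and XII 56 of 403 (13.9%). At the other end were XIV with 5%, XVI with 2.25% and VIII with 2 of 205 (0.976%). On chromosomes I and VI the early positions already stood above the genome at 1 hr, with mean levels of 0.13 and 0.11 over the 4 cultures not used in the choice, against -0.027 to 0.0085 on the other chromosomes. This offset was present at 1 hr and cancels in the rise only so far as it was constant over time. Whether it was constant, and its part in the results on levels, was not tested.

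Early positions came in runs. When early positions no more than 5 kb apart were joined, they formed 123 runs, of which 57 were single positions, 25 were pairs and 41 held at least 3. The 13 runs with 10 or more held 196 of the early positions (44%). Peaks of neighbouring runs of 3 or more on a chromosome lay a median of 62.5 kb apart (quartiles 27.5 and 92.5 kb, 27 intervals). Listed positions were 2.5 kb apart and neighbouring values are correlated, so positions of a run are not independent measurements.

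The longest run lay on X from 392500 to 462500, across the centromere, and held 28 early positions. Its mean rise was 0.11 in tof1∆ ARS+, 0.12 in tof1∆ ars∆, 0.086 in DDK OP ARS+ and 0.052 in DDK OP ars∆. The level of this run in tof1∆ ars∆ was -0.0039 at 1 hr, -0.019 at 1.5 hr, 0.041 at 2 hr, 0.11 at 2.5 hr, 0.12 at 3 hr, 0.097 at 3.5 hr and 0.078 at 4 hr. This run was at the genome's median before S phase and was highest at 3 hr in that culture.

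The second longest run, with 23 early positions from 150000 to 207500 on VI, takes in the positions nearest ARS606 and ARS607, origins known to fire early in mitotic cells. Its mean rise was 0.069 in tof1∆ ARS+, 0.095 in tof1∆ ars∆, 0.075 in DDK OP ARS+ and 0.030 in DDK OP ars∆. Its level at 1 hr was 0.087, 0.11, 0.11 and 0.086 in the same 4 cultures, so this run carried the offset in each of them. Next in size were VII from 470000 to 522500 with 20 early positions, XII from 125000 to 170000 with 18, IV from 430000 to 472500 with 16, XV from 322500 to 360000 with 15 and II from 230000 to 260000 with 13. The set of 10 was completed by XI from 432500 to 462500 with 12, IV from 537500 to 565000 with 11 and XIII from 272500 to 295000 with 10. For 9 of these 10 runs, the highest wild-type position lay within 25 kb of a centromere, and the run on IV from 537500 was the exception. The lowest mean of any of the 10 runs in any of the 4 cultures not used in the choice was 0.021.

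The first question put to the tof1∆ and DDK OP cultures was whether positions chosen in wild type also rose there. They did in most cases. In limma over these 4 cultures, 320 of the 445 early positions were higher at adjusted p under 0.05 (71.9%), where 14.2% of all 4568 positions were called higher. None was called lower, where 12.1% of all positions were. No early position was lower at an unadjusted p under 0.05 either, where 937 of all 4568 positions were. The median of the mean rise was 0.075 for early positions and -0.0081 for the other positions off chromosome III. Both tof1∆ cultures weighed in this count, which fell to 131 (29.4%) without tof1∆ ARS+ and to 184 (41.3%) without tof1∆ ars∆. The share called over all positions fell alongside, to 4.79% and 6.85% in the same fits.

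The result was present in each culture, with different sizes. The median rise of the early positions was 0.096 in tof1∆ ARS+, 0.094 in tof1∆ ars∆, 0.067 in DDK OP ARS+ and 0.042 in DDK OP ars∆. The median of the other positions lay between -0.010 and -0.0041 in these cultures. The rise was above 0 at 430, 429, 405 and 383 of the 445 early positions in that order of cultures, or 86.1% to 96.6%, against 44% to 46.3% of the other positions. It was above 0 in 4 of 4 cultures at 343 early positions (77.1%), where 22.5% of all positions and 17% of the other positions off chromosome III met this. The early positions were higher on average in every culture, while single positions overlapped widely with the rest.

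**Figure D2:**
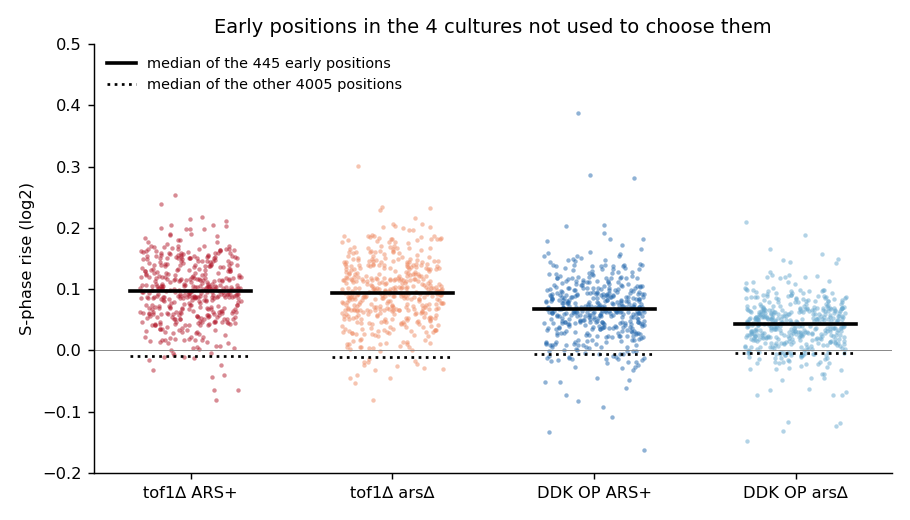
S-phase rise (log2) of each of the 445 early positions in the 4 cultures that took no part in the choice, 1 point per position with random sideways scatter. Solid bars are medians of the early positions (0.096, 0.094, 0.067 and 0.042 from left to right) and dotted bars medians of the other 4005 positions off chromosome III, all just below 0.

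The mean rise of early positions minus that of the other positions was 0.105 in tof1∆ ARS+, 0.103 in tof1∆ ars∆, 0.0717 in DDK OP ARS+ and 0.0436 in DDK OP ars∆, with a mean of 0.081 ± 0.029 (SD, n = 4 cultures). The cultures also differed in how far all positions spread, with SDs of the rise of 0.072 in both tof1∆ cultures, 0.059 in DDK OP ARS+ and 0.047 in DDK OP ars∆. Divided by that SD, the differences were 1.47, 1.42, 1.21 and 0.918. The order of the cultures was thus the same on both scales, with less distance between them on the second. An exact sign-flip test over 4 cultures cannot give a p below 0.125, and none was run on these averages.

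Early positions were also found near the top of each culture's own ranking. Of the 445, 226 lay in the highest 10% of tof1∆ ARS+ (50.8%), 213 in that of tof1∆ ars∆ (47.9%), 185 in that of DDK OP ARS+ (41.6%) and 132 in that of DDK OP ars∆ (29.7%). In all, 46 positions were in the highest 10% of all 4 cultures, and 36 of them (78.3%) were early positions of wild type, which is 8.09% of the early positions. Conversely, 95 early positions were in the highest 10% of none of the 4.

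The relation extended over the whole genome off chromosome III and was graded. When the 4450 positions were divided by wild-type value into 10 classes of 445, the mean rise over the 4 cultures was 0.074 ± 0.026 in class 1 (the early positions), 0.048 ± 0.014 in class 2, 0.0061 ± 0.0023 in class 5 and -0.053 ± 0.013 in class 10 (SD, n = 4 cultures). The share called higher was 71.9% in class 1, 37.5% in class 2, 17.1% in class 3 and 0.225% in class 10. Class 10 averaged -0.063 and -0.065 in the tof1∆ cultures and -0.047 and -0.037 in the DDK OP cultures. The tof1∆ cultures were thus further from 0 than the DDK OP cultures at both ends of the wild-type ranking.

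**Figure D3:**
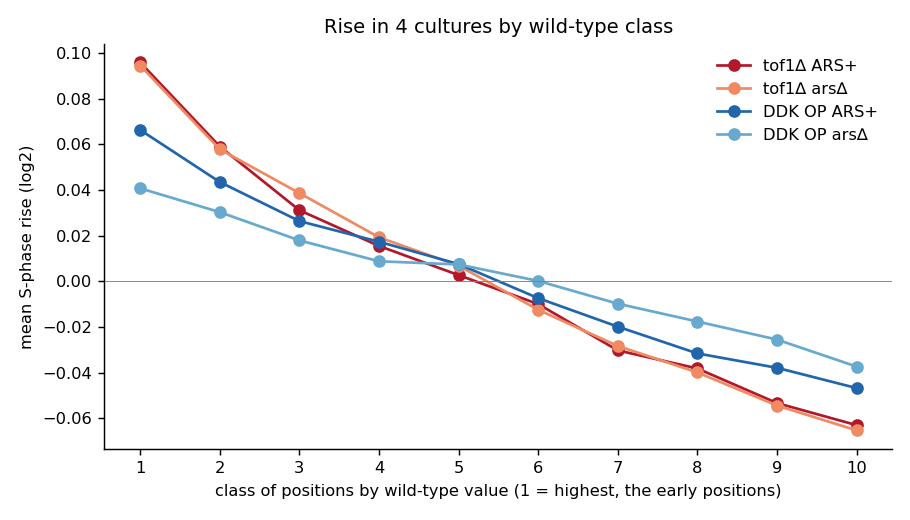
Mean S-phase rise (log2) in each of the 4 cultures not used in the choice, for the positions off chromosome III in 10 classes of 445 by wild-type value (1 is highest and holds the early positions). The lines descend to between -0.065 and -0.037 in class 10, against 0.041 to 0.096 in class 1, and the tof1∆ lines are the steepest.

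Where an early position lay went with how it fared in the other cultures. Near centromeres 155 of 176 early positions were called higher (88.1%), where 67.9% of all listed positions there were. In the rest of the arms 140 of 220 were (63.6%), where 12.5% of all positions were. Between 30 and 100 kb from an end 22 of 41 were (53.7%), where 6.31% of all positions were, and in the outer 30 kb 3 of 8 (37.5%), where 4.3% were. All positions, with the early ones among them, thus followed the same order of places. The 67.9% near centromeres includes the 155 called early positions, so it is not a share of the positions that were not early. By length of run, the called share was 24.6% for the 57 single positions, 55.4% in runs of 2 to 4, 85.7% in runs of 5 to 9 and 87.8% in runs of 10 or more. Single positions had median rises of 0.051 and 0.055 in the tof1∆ cultures and 0.044 and 0.018 in the DDK OP cultures. In runs of 10 or more the medians were 0.11 in both tof1∆ cultures and 0.075 and 0.049 in the DDK OP cultures. The wild-type value used for the choice was also lower for single positions, with a median of 0.092 against 0.11 in runs of 10 or more. All but 1 of the 41 runs of 3 or more had a mean above 0 in each of the 4 cultures. Of all 123 runs, 76 did. On chromosome XVI, 1 of 8 early positions was called (12.5%), where 3.93% of all listed positions there were.

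**Figure D4:**
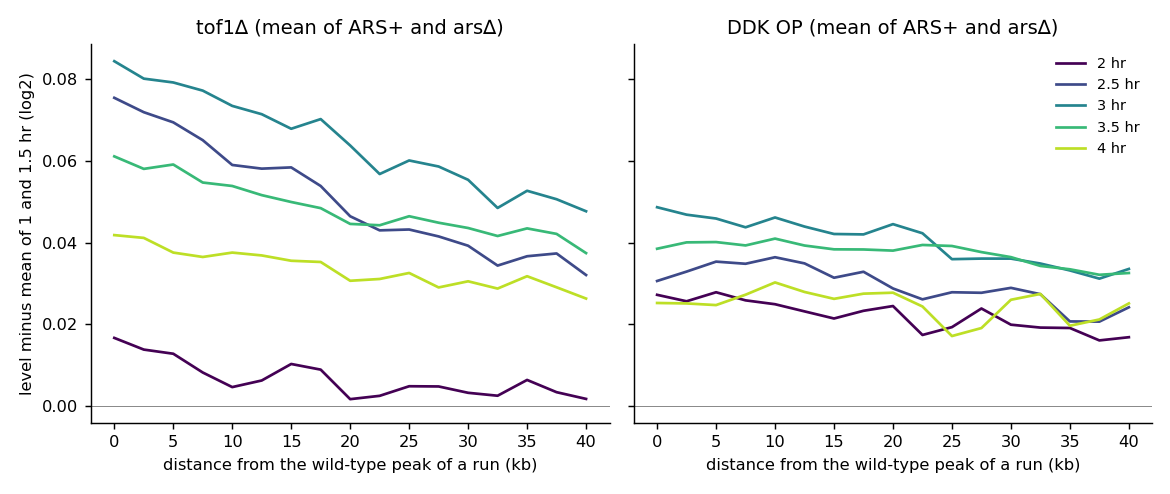
Level relative to the mean of 1 and 1.5 hr (log2) against distance (kb) from the highest wild-type position of each run, averaged over the 123 runs and over the ARS+ and ars∆ cultures of tof1∆ (left) and DDK OP (right), 1 line per time. At 3 hr the centre stood at 0.088 and 0.081 in the tof1∆ cultures and at 0.060 and 0.037 in the DDK OP cultures, and the slope away from it was steeper in tof1∆.

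Around the highest wild-type position of each run, the gain in copy number fell off gently. At 3 hr the level relative to 1 and 1.5 hr averaged 0.067 at the centre, 0.060 at 10 kb, 0.054 at 20 kb and 0.041 at 40 kb over the 4 cultures. The centre exceeded the mean of 30 to 40 kb by 0.036 in tof1∆ ARS+, 0.031 in tof1∆ ars∆, 0.020 in DDK OP ARS+ and 0.010 in DDK OP ars∆. In DDK OP ars∆ at 2.5 hr the centre was below its surroundings, by a difference of -0.018. At 4 hr the difference was 0.0091 and 0.016 in the tof1∆ cultures and 0.0036 and -0.00087 in the DDK OP cultures. The level was thus above that of 1 and 1.5 hr out to 40 kb on either side, where positions can also belong to a neighbouring run, and the runs were not separated. At 4 hr the contrast between centre and surroundings was smaller than at 3 hr in each of the 4 cultures.

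The second question was when the early positions gained and lost their excess. The excess, taken as the mean level of the early positions minus that of the other positions, averaged 0.0013 ± 0.0043 at 1 hr, 0.012 ± 0.019 at 1.5 hr, 0.042 ± 0.020 at 2 hr, 0.087 ± 0.038 at 2.5 hr, 0.099 ± 0.019 at 3 hr, 0.076 ± 0.015 at 3.5 hr and 0.055 ± 0.013 at 4 hr (SD, n = 4 cultures). It was near 0 in all 4 cultures at 1 hr and above 0 in all 4 from 2 hr on. At its highest it stood for 8.24% more copies than the other positions in tof1∆ ARS+, 8.32% in tof1∆ ars∆, 7.12% in DDK OP ARS+ and 5.82% in DDK OP ars∆.

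In tof1∆ ARS+ the excess was -0.0050 at 1 hr, -0.0074 at 1.5 hr, 0.019 at 2 hr, 0.11 at 2.5 hr, 0.11 at 3 hr, 0.073 at 3.5 hr and 0.044 at 4 hr. In tof1∆ ars∆ it was 0.0022, 0.0024, 0.036, 0.11, 0.12, 0.093 and 0.073 at the same times. Both tof1∆ cultures were flat to 1.5 hr, gained most between 2 and 2.5 hr and were highest at 3 hr. In DDK OP ARS+ it was 0.0044, 0.017, 0.065, 0.099, 0.090, 0.058 and 0.048, and in DDK OP ars∆ 0.0037, 0.035, 0.047, 0.032, 0.076, 0.082 and 0.054. Both DDK OP cultures were above both tof1∆ cultures at 1.5 and 2 hr, and DDK OP ars∆ dipped at 2.5 hr. For description, WT ARS+ had -0.015, -0.010, 0.046, 0.041, 0.069, 0.11 and 0.063, and WT ars∆ had -0.011, -0.014, 0.028, 0.13, 0.16, 0.13 and 0.081.

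**Figure D5:**
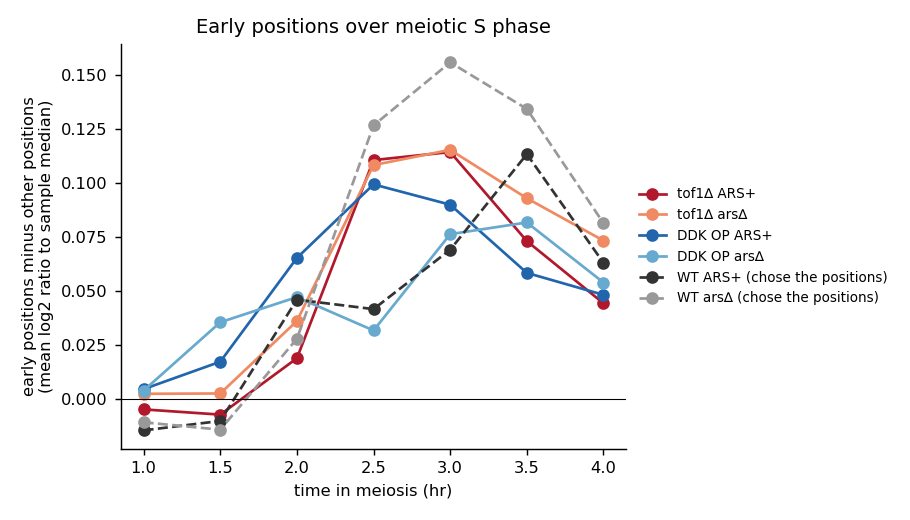
Mean level of the early positions minus that of the other positions off chromosome III (log2) against time in meiosis (hr), 1 line per culture. Solid lines are the cultures not used in the choice and dashed lines the wild-type cultures that chose the positions; the solid lines start within 0.0050 of 0 at 1 hr and peak between 0.082 and 0.12.

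The highest excess fell at 3 hr in both tof1∆ cultures, at 2.5 hr in DDK OP ARS+ and at 3.5 hr in DDK OP ars∆. By 2 hr the excess had reached 16.4% and 31.2% of its highest value in the tof1∆ cultures and 65.7% and 57.6% in the DDK OP cultures. At 4 hr 38.6% and 63.5% of it were left in the tof1∆ cultures and 48.4% and 65.9% in the DDK OP cultures. The DDK OP cultures were thus further along at 2 hr in both cases, with no overlap between the pairs, while the shares left at 4 hr overlapped. Cultures were sampled at fixed times, and a culture that entered S phase earlier cannot be told apart from one whose early positions were copied earlier relative to the rest.

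Early positions called one by one were few at single times. For 2 hr against the mean of 1 and 1.5 hr, limma called 2 early positions higher, where 0.0438% of all positions were called higher, and 0 lower, where 0.0219% were. The 2 were XIII 377500, at 0.27 with an SE of 0.035, and XV 122500, at 0.19 with an SE of 0.027 (limma adjusted p = 0.000273 for each), and each lay beside a stretch where positions are not listed. At an unadjusted p under 0.05, 118 early positions were higher (26.5%), where 6.02% of all positions were, and 3 were lower, where 4.05% were. The median was 0.030 for early positions and -0.0013 for all positions. Without DDK OP ars∆ the count of calls was 13, where 0.416% of all positions were called. It was 3 without tof1∆ ARS+, where 0.0876% were, and 3 without tof1∆ ars∆, where 0.109% were.

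For 4 hr against the mean of 3 and 3.5 hr, limma called 0 early positions lower, where 0% of all positions were called lower. At an unadjusted p under 0.05, 91 were lower (20.4%), where 6.41% of all positions were, and 1 was higher, where 5.32% were. The change was below 0 at 384 early positions (86.3%), against 52% of all positions, with a median of -0.030. For 4 hr against 1 and 1.5 hr, limma called 0 early positions higher, where 0% of all positions were called. At an unadjusted p under 0.05, 136 were higher (30.6%), where 8.52% of all positions were. The median was 0.045 for early positions and 0.00067 for all positions, and 410 early positions (92.1%) were above 0, against 50.7% of all positions. With 4 cultures, single positions did not pass the adjusted threshold for the loss or for what was left at 4 hr.

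The third comparison set the tof1∆ cultures against the DDK OP cultures, 2 against 2. Early positions leaned to the tof1∆ side. The rise was higher in tof1∆ than in DDK OP on average at 362 early positions (81.3%), against 49.3% of all positions, and the median difference was 0.040 for early positions and -0.00090 for all. Both tof1∆ cultures were above both DDK OP cultures at 212 early positions (47.6%), where 20.6% of all positions met this. Both were below at 19 (4.27%), where 20.6% of all positions were. All positions spread more widely in tof1∆, as given above, and the excess started earlier in DDK OP. With 1 hr alone as baseline, the mean rise of early minus other positions was 0.104 and 0.103 in the tof1∆ cultures. It was 0.078 and 0.059 in the DDK OP cultures. The part of the spread and of the earlier start in this lean was not tested.

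Few early positions passed the test of this difference one by one. Limma called 2 early positions higher in tof1∆, where 0.0876% of all positions were called higher, and 0 lower, where 0.0876% were called lower. At an unadjusted p under 0.05, 83 were higher (18.7%), where 4.82% of all positions were, and 1 was lower, where 5.69% were. The 2 calls were IV 462500 and VII 405000, and neither held with 1 hr alone as baseline or in 10-kb windows. The count of calls was 5 without DDK OP ARS+, 8 without DDK OP ars∆, 4 without tof1∆ ARS+ and 3 without tof1∆ ars∆, where 0.241%, 0.35%, 0.197% and 0.153% of all positions were called.

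IV 462500 is the listed position nearest ARS416, also known as ARS1, and lies in the run around the centromere of IV. Its rise was 0.22 and 0.23 in the tof1∆ cultures and -0.082 and 0.060 in the DDK OP cultures, a difference of 0.237 with an SE of 0.043 (limma adjusted p = 0.0454). Both tof1∆ cultures were above both DDK OP cultures. The level in DDK OP ARS+ was already 0.23 at 1 hr, against -0.086 in DDK OP ars∆ and -0.15 and -0.10 in the tof1∆ cultures at that time. The neighbouring early positions IV 460000 and IV 465000 differed by 0.12 and 0.14 in the same direction (limma adjusted p = 0.27 and 0.172).

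At VII 405000, an early position alone in its run, the rise was 0.15 and 0.036 in the tof1∆ cultures and -0.13 and -0.12 in the DDK OP cultures, a difference of 0.218 with an SE of 0.041 (limma adjusted p = 0.0454). Its level at 1 hr was -0.058 and -0.011 in the tof1∆ cultures and 0.21 and 0.067 in the DDK OP cultures. Both called positions thus began higher in DDK OP ARS+ than in either tof1∆ culture. The neighbours VII 402500 and VII 407500, which are not early positions, differed by 0.045 and 0.071 (limma adjusted p = 0.747 and 0.524). The early position with the next lowest p, XII 505000, had rises of 0.13 and 0.19 in the tof1∆ cultures and -0.032 and 0.0018 in the DDK OP cultures, a difference of 0.17 (limma adjusted p = 0.123).

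The ars deletions are on chromosome III, where no early position lies. For ars∆ minus ARS+, with background as a term, limma called 1 early position lower, where 0.81% of all positions were called lower, 28 of those 37 being on chromosome III. It called 1 early position higher, where 0.0657% of all positions were. The lower one was XIII 185000 with a difference of -0.19 (limma adjusted p = 0.000848) and the higher one VII 822500 with 0.19 (limma adjusted p = 0.00115), and each lay beside a stretch where positions are not listed. XIII 185000 was lower in ars∆ in the DDK OP pair, with rises of -0.15 in DDK OP ars∆ and 0.39 in DDK OP ARS+, and higher in the tof1∆ pair, with 0.30 in tof1∆ ars∆ and 0.15 in tof1∆ ARS+. The fit has 1 residual degree of freedom and borrows all of its spread from the other positions, so it takes no account of the spread at that position. At an unadjusted p under 0.05, 16 early positions were lower, where 2.71% of all positions were, and 4 higher, where 2.25% were.

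Single positions show the range behind these counts. Of the highest wild-type position on each of the 15 chromosomes, 10 were called higher in the 4 cultures and 9 were above 0 in 4 of 4. Of all early positions 71.9% were called higher and 77.1% were above 0 in 4 of 4. Over all positions these shares were 14.2% and 22.5%. The top position of XI, at 447500 near the centromere, rose in 4 of 4 cultures, by 0.17 and 0.13 in tof1∆ and 0.11 and 0.069 in DDK OP (mean 0.12 ± 0.041 SD, n = 4 cultures, limma adjusted p = 0.00228). The top position of XVI, at 627500, had rises of 0.023 and 0.027 in tof1∆ and 0.029 and -0.0049 in DDK OP (limma adjusted p = 0.476), and was not called. The top position of IX, at 325000, had rises of 0.052 and 0.070 in tof1∆ and -0.0012 and -0.073 in DDK OP (limma adjusted p = 0.715). Positions beside a stretch that is not listed made up 4.04% of the early positions and 2.43% of all positions off chromosome III, but 5 of these 15 tops.

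The largest mean rise over the 4 cultures was that of XIII 377500, which was also the top position of its chromosome in wild type. It rose by 0.18 and 0.14 in tof1∆ and 0.28 and 0.16 in DDK OP (mean 0.19 ± 0.061 SD, n = 4 cultures, limma adjusted p = 0.000784). Its level at 1 hr was -0.067 and 0.060 in tof1∆ and -0.37 and -0.14 in DDK OP. At 3 hr it was 0.034 and -0.042 in tof1∆ and 0.066 and 0.044 in DDK OP. This position was alone in its run and lay beside a stretch where positions are not listed. VII 880000, with both neighbours listed, had the most even values among the 10 largest, with 0.16 and 0.18 in tof1∆ and 0.12 and 0.15 in DDK OP (mean 0.15 ± 0.024 SD, n = 4 cultures, limma adjusted p = 0.00105). At the other extreme, 9 of the 445 early positions had a mean rise at or below 0, where 51.2% of all positions were below 0. The lowest was XI 487500, with -0.081 and -0.022 in tof1∆ and -0.017 and -0.026 in DDK OP, and its neighbour XI 485000 was also below 0 in 4 of 4 cultures. Neither was called lower, and both had been chosen on wild-type values.

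Of 6 positions nearest origins of known timing in mitotic cells, the 3 nearest early origins were early positions and the 3 nearest late origins were not. This split rests on the wild-type values that chose the positions and is description only. Of all listed positions on VI, 32% were early, and near centromeres, where VI 167500 and IV 462500 lie, 60.1% were. IV 462500, nearest ARS416, had rises of 0.22 and 0.23 in tof1∆ and -0.082 and 0.060 in DDK OP (limma adjusted p = 0.0397). VI 167500, nearest ARS606, rose in 4 of 4 cultures, by 0.13 and 0.065 in tof1∆ and 0.087 and 0.049 in DDK OP (limma adjusted p = 0.00889). VI 200000, nearest ARS607, rose in 4 of 4, by 0.042 and 0.066 in tof1∆ and 0.11 and 0.064 in DDK OP (limma adjusted p = 0.0158). V 550000, nearest ARS522, had values of -0.049 and -0.052 in tof1∆ and -0.031 and -0.038 in DDK OP, all below 0, and the closest early position was 190 kb away. VI 70000 and VI 255000, nearest ARS603 and ARS609, had means of -0.024 ± 0.051 and 0.015 ± 0.057 (SD, n = 4 cultures), which did not pass the test. Their closest early positions were 35 kb and 7.5 kb away, and VI 255000 had a wild-type value of 0.0802, just under the limit of the choice. Origin places were rounded from general knowledge, and positions are windows of unstated width, so no origin was resolved as such.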

How the data were processed

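The authors deposited 1 table of ratios per strain, with 7 times from 1 to 4 hr and 4568 positions on 16 chromosomes, 2.5 kb apart with 41 gaps. Ratios ran from 0.549 to 1.47. The submitters' processing notes name BWA and the build sacCer2, with a BWA version not given in the sources used here. All per-sample columns were used, and 0 were left out.

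Ratios were divided by the sample median and taken to log2. Positions were tested with limma 3.58.1 in R 4.3.3 (lmFit, eBayes) over the 4 tof1∆ and DDK OP cultures, with Benjamini-Hochberg adjustment over all 4568 positions and a threshold of 0.05. For the rise there were 3 residual and 13.9 prior degrees of freedom, and for tof1∆ minus DDK OP 2 and 15.3. Most of the spread behind these p-values thus came from other positions. For the rise and for the single times, the 4 cultures were fitted together with no term for background. The scripts were tested on simulated data. The early positions and the lists were chosen with earlier results of these data known.

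Named positions are the top early position of each chromosome, the 10 longest runs, the 10 highest and 5 lowest rises, the 3 lowest p for tof1∆ minus DDK OP, the positions nearest listed origins, 3 on each side of the limit of the choice, and any other called early position with its neighbours. That last item was added after values were seen. Alternatives are listed in the closing section. No sacCer2 sequence or annotation was used here, so no genes or sequences are given.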

Additional observations from a re-analysis of the deposited data

Results flagged for a closer look

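Flagged here are 3 early positions where the tof1∆ and DDK OP cultures differed or moved in opposite directions. Opposite signs were not counted over all 445 early positions. They also occurred elsewhere, as at XV 230000, with rises of 0.11 and 0.048 in tof1∆ and -0.061 and -0.031 in DDK OP. IV 462500 had a rise higher in tof1∆ than in DDK OP by 0.237, and VII 405000 by 0.218, both by limma's test of the difference itself (adjusted p = 0.0454 each). Neither stayed called in 10-kb windows, with the sample mean as centre, with 1 hr alone as baseline, with a trend in the moderation or with all 6 cultures in the fit.

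At IX 325000, the highest wild-type position of its chromosome, both tof1∆ cultures were above 0 and both DDK OP cultures below, a difference of 0.0979 that did not pass limma's test (adjusted p = 0.419). No group had 4 samples at 1 time, so single samples were not tested for standing apart.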

How the results depend on the processing

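Of 93 alternatives run over these results, 53 left the value within the set limits and 40 moved it. Most of the values were percentages, which cannot change sign. The 71.9% of early positions called for the rise ranged from 29.4% to 71.2% when 1 culture was left out, and stayed within 1.5 times under the other alternatives. Among these, it was 51% with early positions chosen from WT ARS+ alone and 69.9% from WT ars∆ alone, where 14.2% of all positions were called. Over all positions the share for the rise ran from 4.79% to 14.5% when 1 culture was left out. Leave-one-out ranges were 0.449% to 2.92% for 2 hr (from 0.449%), 0% to 0.225% for the level left at 4 hr (from 0%) and 0.674% to 1.8% for tof1∆ minus DDK OP (from 0.449%). For the level left, 0% to 0.131% of all positions were called when 1 culture was left out. The ars∆ fits without a culture had no residual degrees of freedom and were not run.

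In 10-kb windows the shares called were 0% for 2 hr, 0% for tof1∆ minus DDK OP, 0% for ars∆ lower, 0.787% for the return and 7.87% for the level left. Over all windows they were 0%, 0%, 1.11%, 0.17% and 1.7% in the same order. Requiring both neighbours gave 0% for 2 hr, 0.234% for the level left and 0% for ars∆ lower. Over all such positions these were 0%, 0.0898% and 0.741%. A moderation trend gave 0% for 2 hr, 0% for tof1∆ minus DDK OP and 0.449% for ars∆ lower, where 0%, 0.0219% and 0.854% of all positions were called. With 1 hr alone as baseline, 2 hr gave 0.899% and tof1∆ minus DDK OP 0%, where 0.153% and 0.0219% of all positions were called. Centring on the mean, or fitting all 6 cultures, gave 0% for tof1∆ minus DDK OP, where each called 0.0219% of all positions. A term for ars state gave 1.8%, where 0.328% of all positions were called. Leaving out the background term gave 0% for ars∆ lower, where 0% of all positions were called.

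With the highest 5% as early positions, 2 hr gave 0.901%, tof1∆ minus DDK OP 0.901%, ars∆ lower 0.45%, the share near centromeres 46.8% and the share in the outer 30 kb 0.45%. With the highest 20% these were 0.225%, 0.225%, unmoved, 27.1% and 4.61%. Choosing from WT ARS+ alone gave 0.225% for tof1∆ minus DDK OP and 0.674% for ars∆ lower, and from WT ars∆ alone 0.449% for ars∆ lower. With these choices 0.0438%, 0.0876% and 0.81% of all positions were called for 2 hr, tof1∆ minus DDK OP and ars∆ lower. Around peaks, the centre minus 30 to 40 kb at 3 hr was 0.0455 for runs of 3 or more, against 0.0242 for all runs. The mean difference of 0.081 ran from 0.0632 to 0.0934. With alternatives chosen after seeing the data it was 0.0817 without chromosome VI and 0.0735 without positions near centromeres. The cause of these moves was not tested.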
